A study of Mus musculus with 10 samples.

Results

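The 9 genes described here are feedback inhibitors and other cytokine-induced targets of the transcription factor STAT5: Cish, Socs1, Socs2, Socs3, Pim1, Pim2, Osm, Lta and Spred1. They were chosen by name, and each was represented by the probe set that the platform annotation gives to its symbol alone, taking the one of highest mean over the 10 arrays where there were several. All 9 were found among the 19938 symbols measured by at least 1 such probe set. RNA came from B220+ cells of pre-B colonies (CFU-PreB, B cell precursors that form colonies in semi-solid medium) on day 7 of culture. The groups were 5 mice of genotype Hspa9+/+, called wild type littermates in the labels, and 5 mice of genotype Hspa9+/-, here called heterozygous. Marrow of each mouse was cultured separately in M3630 medium, no treatment was applied, and strain, age and sex are not given in the sources used here. Hspa9 encodes the mitochondrial chaperone mortalin, and how the allele was disrupted is likewise not given.

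Interleukin 7 is the growth factor on which mouse B cell precursors depend, and medium for pre-B colonies supplies it. Its receptor activates the kinases JAK1 and JAK3, which phosphorylate STAT5, and STAT5 dimers enter the nucleus and bind DNA at palindromic sites. Among the genes they induce are CIS and the SOCS proteins, which bind the receptor or the kinases and damp the signal, and the PIM kinases, which favour survival and growth. In pre-B cells the level of these transcripts is commonly read as a measure of signalling through the receptor, while loss of the signal lets cells leave the cycle and rearrange their light chain genes.

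RefSeq promoter windows of build GRCm38.p6, each running from 250 bases before to 50 bases after a start site, were at hand for 7 of the 9 genes, and none for Socs2 and Osm. They were searched for TTCNNNGAA, the core of a STAT5 site, which reads the same on both strands. The 3 genes whose windows held it are shown because they carry the sequence feature by which the set is known. Capitals mark the motif's fixed letters. The windows are chr9:107296409-107296708 (plus strand) for Cish, chr17:35205302-35205601 (minus strand) for Lta and chr11:117969317-117969616 (minus strand) for Socs3, each written 5′ to 3′ along the gene.
Cish: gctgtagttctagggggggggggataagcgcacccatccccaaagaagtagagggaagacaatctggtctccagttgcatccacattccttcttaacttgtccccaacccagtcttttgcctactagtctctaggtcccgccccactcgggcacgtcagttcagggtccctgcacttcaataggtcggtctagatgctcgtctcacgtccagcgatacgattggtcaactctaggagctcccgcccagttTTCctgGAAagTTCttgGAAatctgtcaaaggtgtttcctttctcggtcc
Lta: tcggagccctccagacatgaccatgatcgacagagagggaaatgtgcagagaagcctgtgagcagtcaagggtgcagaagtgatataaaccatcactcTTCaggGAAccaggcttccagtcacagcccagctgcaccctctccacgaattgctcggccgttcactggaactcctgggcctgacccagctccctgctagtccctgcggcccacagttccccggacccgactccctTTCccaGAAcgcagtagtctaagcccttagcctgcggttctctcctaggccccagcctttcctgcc
Socs3: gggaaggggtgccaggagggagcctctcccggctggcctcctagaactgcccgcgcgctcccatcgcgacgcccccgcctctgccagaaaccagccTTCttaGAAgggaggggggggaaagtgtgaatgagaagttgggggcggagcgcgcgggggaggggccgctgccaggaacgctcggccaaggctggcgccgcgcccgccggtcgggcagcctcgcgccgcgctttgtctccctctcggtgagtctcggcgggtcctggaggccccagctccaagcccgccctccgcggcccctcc

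The Cish window held 2 matches, which began at bases 1 and 12 counted from the start site, so that 2 bases part them. In the Lta window the 2 matches began 152 and 16 bases before the start, and in the Socs3 window the only one began 154 bases before it. The windows of Socs1, Pim1 (2 start sites), Pim2 and Spred1 held none of these letters. Over all 32851 windows of this length in the table, 8.30% held the motif at least once and 0.457% held it 2 times or more. A match describes the letters only, and binding was not measured.

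Values are RMA expression on the log2 scale, so that a difference of 1 is a doubling. Each difference subtracts the wild type from the heterozygous mean, with n = 5 arrays per genotype. The table gave array medians between 5.38 and 5.49, and the number of arrays limits the precision. Hspa9 itself averaged 9.92 in wild type and 9.18 in heterozygous arrays (difference -0.73, unadjusted exact permutation p = 0.0159, limma adjusted p = 0.345), with heterozygous 1 above wild type 1. Transcripts that define B lineage cells were bright on every array. The mean of 10 such genes, among them Cd79a, Vpreb1 and Pax5, ran from 11.18 to 11.34 in wild type arrays. In heterozygous arrays it ran from 11.00 to 11.35. Single genes were less even, with 4 of the 10 higher on average in heterozygous samples and none past adjustment. Vpreb2 and Igll1 were higher, at 0.51 and 0.28, and Cd24a lower, at -0.19, each at an unadjusted limma p under 0.05. Ptprc was at -0.68 (SE 0.345). Pax5 ran from 9.40 to 11.06 in wild type and from 9.21 to 10.56 in heterozygous arrays. Monocyte and macrophage markers set wild type 1 and heterozygous 2 apart from the other arrays. The mean of 15 such markers was 9.06 and 9.52 there, against 5.78 to 7.60 on the other wild type and 6.96 to 7.20 on the other heterozygous arrays. Wild type 3, 4 and 5, at 5.78 to 5.88, lay below every heterozygous array. Of the 15 markers, 14 were higher on average in heterozygous samples, with a median difference of 0.91, but none had an unadjusted limma p under 0.05 between genotypes. The mean of megakaryocyte markers (5 genes) set the same 2 arrays apart, at 7.46 and 7.62 against 5.04 to 5.63 and 5.31 to 6.17 on the others. Pf4, Ppbp and Vwf were highest there, but not Itga2b, at 5.55 in wild type 1 and 5.56 in wild type 2. In Itga2b and Gp9 heterozygous 2 lay below heterozygous 5. Markers of plasmacytoid dendritic cells, which carry B220 and so can pass this selection, were higher on average in heterozygous arrays. Their mean over 5 genes was 6.16 to 7.14 in wild type and 6.78 to 8.29 in heterozygous arrays. The marker lists were chosen with earlier results of these data known, so the count that follows is not independent evidence. Of the 5, 4 were higher in heterozygous samples at an unadjusted limma p under 0.05, where 6.79% of all genes were. These were Siglech at 1.63 (SE 0.477, limma adjusted p = 0.349), Ccr9 at 1.72 (SE 0.598, limma adjusted p = 0.373), Bst2 at 0.72 and Pacsin1 at 0.46. Tcf4, the remaining gene, went the other way, at -0.087 (SE 0.335). None of the 5 passed adjustment, but with array weights Siglech and Ccr9 did (limma adjusted p of 0.0370 and 0.0496). In that setting 137 genes of the whole table passed, among them Hspa9 (limma adjusted p = 0.0381) and Vpreb2 (limma adjusted p = 0.0494). The part of these cell types in the values of the 9 genes was tested only through the marker covariates given below, which hold no plasmacytoid dendritic cell genes. Bulk RNA cannot tell fewer cells of a type from less RNA per cell.

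None of the 9 genes passed limma's test with Benjamini-Hochberg adjustment over the 14953 genes tested, at adjusted p from 0.431 to 0.697, and none passed by exact permutation (adjusted p from 0.486 to 0.744). The background for that call was 0% of genes called. Cish alone had an unadjusted limma p under 0.05, where 11.0% of all genes had one, 6.79% higher and 4.25% lower, so the share of these 9 genes is close to that of the table. In 6 genes the heterozygous mean was the higher one and in 3 the lower, against 61.3% of all genes with a difference above 0. The median difference was 0.18, beside 0.058 over all genes. In none of the 9 did the genotypes separate completely, which happened in 2.28% of all genes. All 9 lay above the filter on dim rows (a mean of 4.52), and their spread over the 10 arrays stood between the 60.3 and 93.8 percentile of all genes tested.

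**Figure D1:**
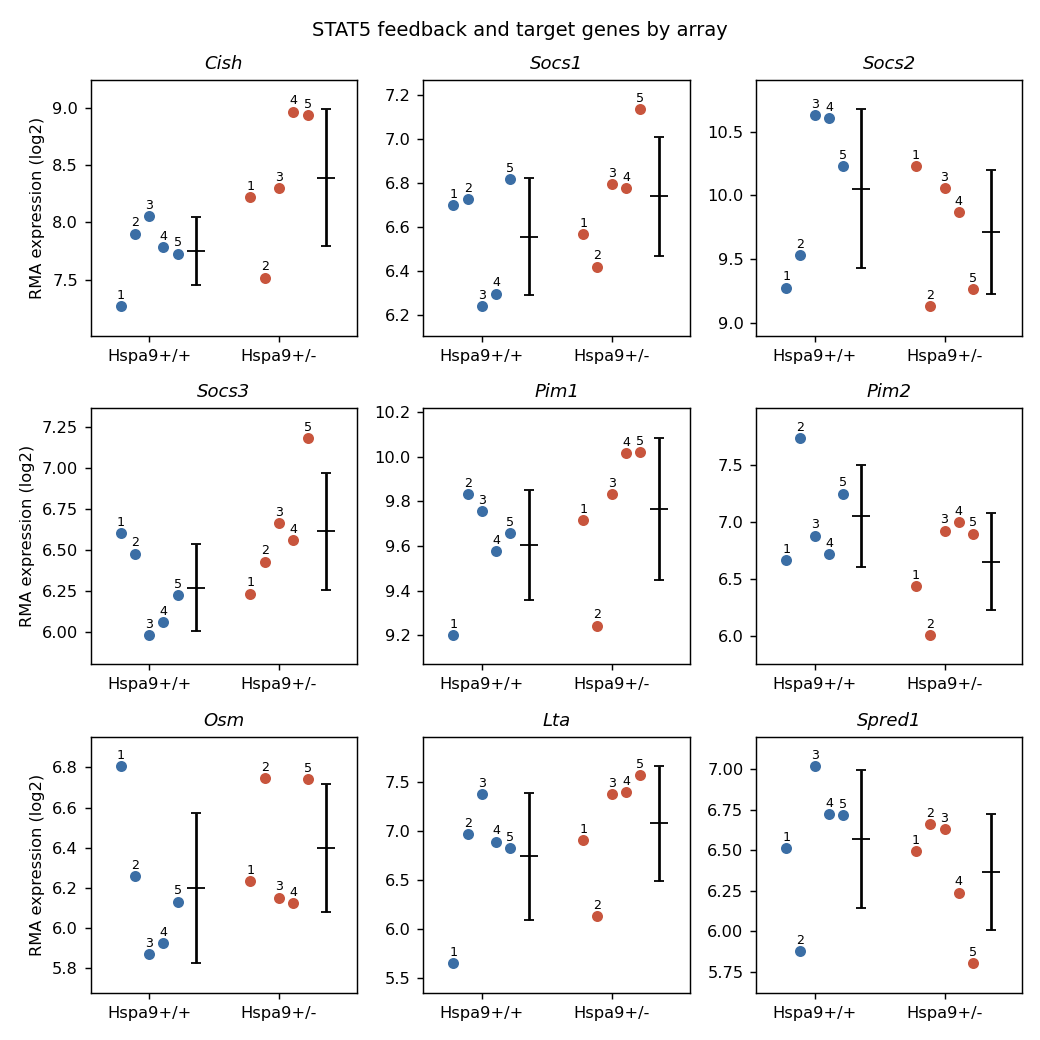
RMA expression (log2) of the 9 genes on each array, in wild type (Hspa9+/+, blue) and heterozygous (Hspa9+/-, red) samples, with the replicate number above each point and the mean with 1 SD as a bar (n = 5 per genotype). In Cish 4 of 5 heterozygous arrays lie above the highest wild type array, and in Cish, Pim1 and Lta wild type 1 and heterozygous 2 are the lowest of their genotype.

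Among the feedback inhibitors, Cish showed the largest difference. It encodes CIS, the founding member of the SOCS family, which competes with STAT5 for docking sites on receptors. Its values were 7.27, 7.90, 8.06, 7.78 and 7.73 in wild type 1 to 5 and 8.22, 7.52, 8.30, 8.97 and 8.94 in heterozygous 1 to 5. Heterozygous 1, 3, 4 and 5 lay above every wild type array, and heterozygous 2 lay below all wild type arrays but wild type 1. The means were 7.75 ± 0.297 and 8.39 ± 0.597 (SD), a difference of 0.64 (SE 0.264, 95% interval 0.061 to 1.22), or 1.56-fold. limma gave an unadjusted p of 0.0333 and an adjusted p of 0.431. The two-sided exact permutation test, whose smallest possible p here is 0.0079, gave 0.0794 (0.486 when adjusted over all genes).

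The Cish difference stayed above 0 without any single array, from 0.50 to 0.86. Its unadjusted limma p was above 0.05 without wild type 1, 4 or 5 or heterozygous 4 or 5, and lowest without heterozygous 2. Over the alternatives that were limma fits, its adjusted p ran from 0.118 to 0.758. Both arrays that are high in macrophage markers are also the lowest in Cish for their genotype. Without that pair the difference was 0.74 (SE 0.187, limma adjusted p = 0.146). With the mean of the macrophage markers in the model it was 0.84 (SE 0.201, limma adjusted p = 0.154).

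Socs3, an inhibitor that binds gp130-type receptors and JAK kinases and is also induced through STAT3, had the next smallest p. Wild type 1 to 5 read 6.60, 6.48, 5.98, 6.06 and 6.23, and heterozygous 1 to 5 read 6.23, 6.43, 6.67, 6.56 and 7.19. The genotypes overlapped, with heterozygous 3 and 5 above every wild type array. The difference was 0.35 (SE 0.184, 95% interval -0.059 to 0.75, exact permutation p = 0.111, limma adjusted p = 0.497), and it was 0.20 without heterozygous 5, the highest array of all. A second Socs3 probe set gave 0.28 (SE 0.175). Neutrophils, which selection for B220 should remove, also express Socs3. Neutrophil lineage markers had a mean of 4.95 to 6.80 in wild type and 5.47 to 7.35 in heterozygous arrays, with all 15 higher on average in heterozygous samples and none at an unadjusted p under 0.05. Their part in the Socs3 values was not tested on its own, but with a covariate that pools neutrophil, macrophage, erythroid and megakaryocyte markers the Socs3 difference was 0.28.

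Socs1, which blocks the JAK kinases directly, overlapped between genotypes. Wild type arrays read 6.70, 6.73, 6.24, 6.30 and 6.82 and heterozygous arrays 6.57, 6.42, 6.79, 6.78 and 7.13. Only heterozygous 5 exceeded the wild type range. The difference was 0.18 (SE 0.161, 95% interval -0.17 to 0.54, limma adjusted p = 0.632), and 0.084 without heterozygous 5.

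Socs2, a SOCS protein best known for restraining growth hormone signalling, was one of the 3 genes with a lower heterozygous mean. Its values were 9.28, 9.53, 10.63, 10.61 and 10.23 in wild type and 10.23, 9.13, 10.06, 9.87 and 9.27 in heterozygous arrays. Both genotypes spread over more than a log2 unit and overlapped, and the highest heterozygous array was level with wild type 5. The difference was -0.34 (SE 0.308, 95% interval -1.02 to 0.34, limma adjusted p = 0.639). It was -0.54 without wild type 1 and -0.20 without wild type 3, without wild type 4 or without heterozygous 2. A second, dimmer Socs2 probe set gave -0.25 (SE 0.229). Of the 20 probe sets numbered nearest to the one used, 17 belong to genes of a single chromosome that is not that of Socs2, whereas 19 of 20 around the second probe set share the chromosome of Socs2. The values of the first, its difference and its nearest genes in profile may therefore not be those of Socs2 itself. For the probe set used, the difference with macrophage markers as a covariate was -0.061 (limma adjusted p = 0.883), and wild type 1 and heterozygous 2 were the lowest of their genotype.

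**Figure D2:**
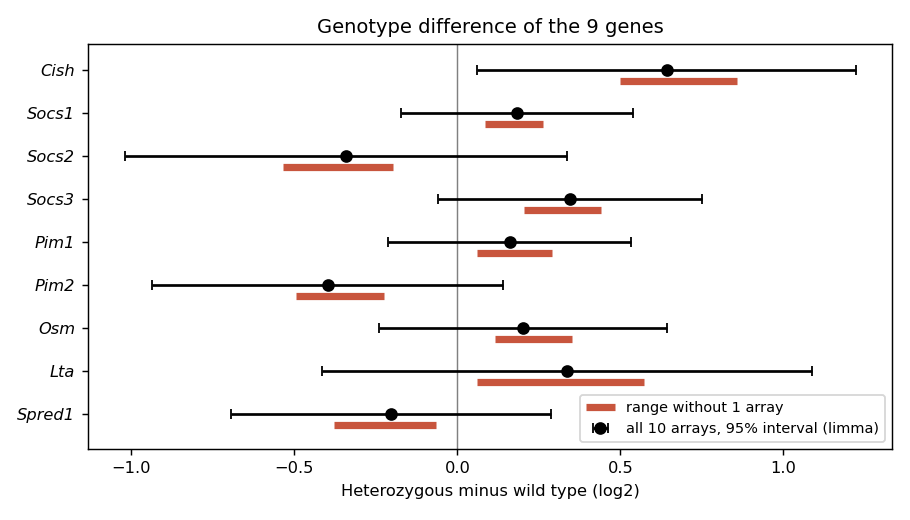
Heterozygous minus wild type difference (log2) of each of the 9 genes with limma's 95% interval (black) and the range of the difference when 1 array is left out (red). The Cish interval, from 0.061 to 1.22, is the only one that does not reach 0, and no difference changes sign without 1 array.

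The PIM kinases, serine/threonine kinases that are active as soon as they are made, had means that differed in opposite directions. Pim1 read 9.20, 9.83, 9.76, 9.58 and 9.66 in wild type and 9.72, 9.24, 9.83, 10.02 and 10.02 in heterozygous arrays. Heterozygous 4 and 5 were the highest arrays, and wild type 1 and heterozygous 2 the lowest. The difference was 0.16 (SE 0.169, 95% interval -0.21 to 0.53, limma adjusted p = 0.686). Leaving out wild type 1 gave 0.060, leaving out heterozygous 2 gave 0.29, and leaving out the pair gave 0.19.

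Pim2 was lower on average in heterozygous samples. Wild type arrays read 6.66, 7.73, 6.88, 6.72 and 7.25, and heterozygous arrays 6.43, 6.01, 6.92, 6.99 and 6.90. All 5 heterozygous arrays lay below the wild type mean of 7.05, and heterozygous 1 and 2 lay below every wild type array. The medians did not show a drop, at 6.88 in wild type and 6.90 in heterozygous arrays. Heterozygous 3, 4 and 5 lay above wild type 1, 3 and 4. The difference was -0.40 (SE 0.245, 95% interval -0.94 to 0.14, exact permutation p = 0.206, limma adjusted p = 0.537), and -0.23 without wild type 2, the highest array. Pim3, the related kinase counted below among other induced genes, was at 0.23 (SE 0.0873).

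The cytokine genes of the set were Osm, which encodes oncostatin M, a ligand of the interleukin 6 family and an early STAT5 target, and Lta, which encodes lymphotoxin alpha, a member of the tumour necrosis factor family. Osm read 6.81, 6.26, 5.87, 5.93 and 6.13 in wild type and 6.23, 6.75, 6.15, 6.12 and 6.74 in heterozygous arrays. In contrast to Cish and Pim1, it was highest in wild type 1 and heterozygous 2. The difference was 0.20 (SE 0.200, 95% interval -0.24 to 0.64, limma adjusted p = 0.670), 0.35 without wild type 1 and 0.029 with macrophage markers as a covariate.

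Lta spanned the widest range of the 9, 3.80-fold from the lowest to the highest array. It read 5.65, 6.97, 7.38, 6.89 and 6.82 in wild type and 6.91, 6.13, 7.38, 7.40 and 7.57 in heterozygous arrays. Wild type 1 and heterozygous 2 were low, and the other arrays of both genotypes overlapped. The difference was 0.34 (SE 0.341, 95% interval -0.42 to 1.09, exact permutation p = 0.452, limma adjusted p = 0.675). It was 0.061 when wild type 1 was left out and was 0.57 when heterozygous 2 was left out, 0.30 when neither was used and 0.65 with macrophage markers as a covariate (limma adjusted p = 0.207). T cells and NK cells, most of which selection for B220 should remove, also make lymphotoxin. Their markers had a mean of 5.35 to 5.63 in wild type and 5.79 to 6.02 in heterozygous arrays over 6 measured genes, so that the genotypes did not overlap. Of these, 4 were higher at an unadjusted limma p under 0.05, where 6.79% of all genes were. This list too was chosen with earlier results of these data known, so its count is not independent evidence. None of the 6 passed adjustment, but with array weights Nkg7 and Thy1 did (limma adjusted p of 0.0311 and 0.0378). Among the 4 higher genes, Thy1 averaged 8.29 in wild type arrays. Il2rb at 4.54, Nkg7 at 4.97 and Cd3e at 5.02 averaged less there than the lowest array median of 5.38. The count was 1 with the median row as the filter on dim rows, which leaves more of the faint genes untested and keeps 9969. Cd3d, Cd3g, Klrb1c, Ncr1 and Gzma lay below the filter. Their part in the Lta values was not tested.

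Spred1 encodes a membrane-bound inhibitor of the Ras-ERK pathway, which runs beside STAT5 from the same kind of receptor. Wild type arrays read 6.51, 5.88, 7.02, 6.72 and 6.72 and heterozygous arrays 6.49, 6.66, 6.63, 6.24 and 5.80. The genotypes overlapped, with heterozygous 5 and wild type 2 as the low arrays. The difference was -0.20 (SE 0.223, 95% interval -0.70 to 0.29, limma adjusted p = 0.697). It was -0.38 without wild type 2 and -0.064 without heterozygous 5.

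The same arrays were the low or high ones in several of the 9 genes. In 5 genes (Cish, Socs2, Pim1, Pim2 and Lta) wild type 1 and heterozygous 2 were both the lowest of their genotype, and in Osm both were the highest. For Socs2 this held on the probe set used, which may not measure Socs2 itself. On the second Socs2 probe set heterozygous 5, at 7.27, lay below heterozygous 2, at 7.30. Heterozygous 5 was the highest of the 10 arrays in 4 genes (Socs1, Socs3, Pim1 and Lta) and the lowest in Spred1. Wild type 3 was the highest array in Socs2 and Spred1 and the lowest in Socs1, Socs3 and Osm.

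**Figure D3:**
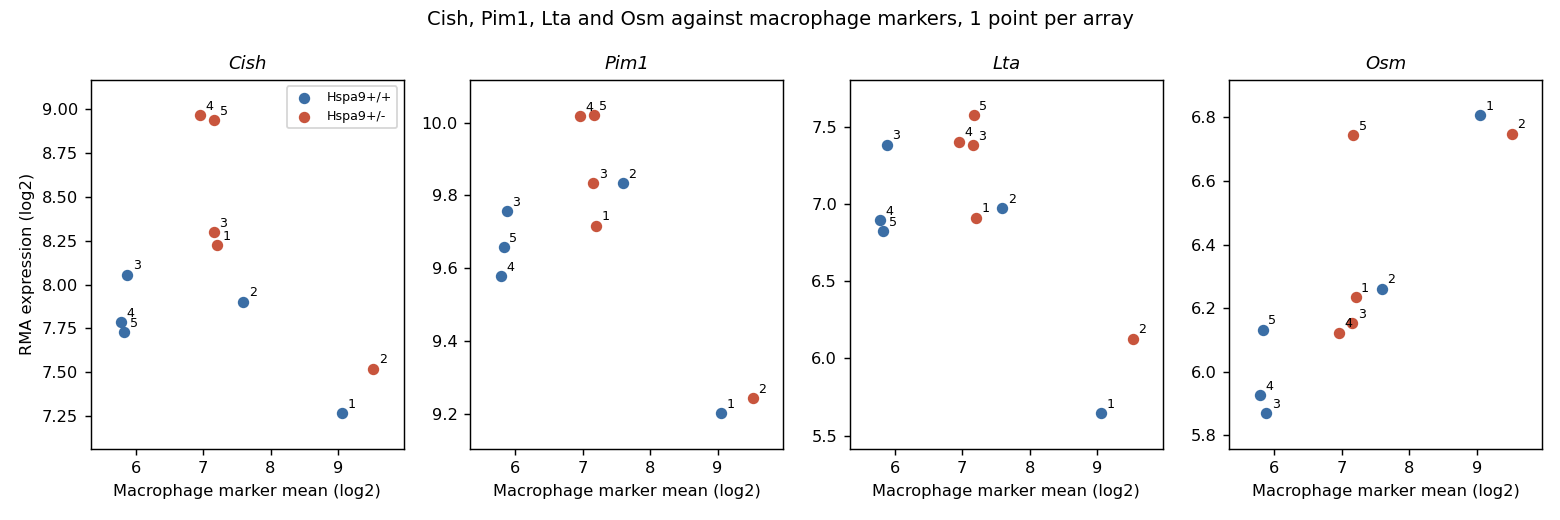
RMA expression (log2) of Cish, Pim1, Lta and Osm against the mean of 15 monocyte and macrophage markers (log2), with 1 point per array, colour for genotype and the replicate number beside it. Wild type 1 and heterozygous 2, at marker means of 9.06 and 9.52, are the lowest arrays of their genotype in Cish, Pim1 and Lta and the highest in Osm.

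The genes whose profiles lay nearest to each member were ranked by the root mean square difference of profiles centred on their own mean over the 10 arrays, out of the 14953 genes tested. Nearest to Cish were Sema7a at 0.114, Pfkl at 0.165 and Fasn at 0.171 log2 units, where Cish itself had an SD of 0.558. Nearest to Lta (SD 0.610) were Mybl2 at 0.159, Polr1b at 0.215 and Srm at 0.225. For Socs2 they were Xpo4, Mcm4 and Sdad1, for Pim1 Polr2d, Bap1 and Cpsf4, and for Pim2 Niban3, Tlr9 and Uchl1. For Socs3 they were Abca2, Zfp771 and Vps37c, for Spred1 Gtf2a1, Npepps and Acap2, for Socs1 Klhl25, Mir187 and Hes5, and for Osm Mir219a-2, Meis3 and Maf. No member was among the 3 nearest of another.

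The receptor and its signalling chain, upstream of these genes, showed no call. Of 7 listed components 5 were measured by a probe set of their own (Il2rg and Jak3 were not), and 0 of the 5 had an unadjusted limma p under 0.05 in either direction. The STAT5 genes themselves differed in opposite directions. Stat5a was at 0.21 (SE 0.113, exact permutation p = 0.0873) and Stat5b at -0.22 (SE 0.102, exact permutation p = 0.0397), with limma adjusted p of 0.495 and 0.462. Il7r, which encodes the interleukin 7 receptor alpha chain, was at -0.15 (SE 0.334), and at 0.066 without heterozygous 5.

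Of 10 other genes that STAT5 is known to induce, 2 were higher and 1 lower at an unadjusted limma p under 0.05, beside 6.79% and 4.25% of all genes, and none passed adjustment over all genes. Their median difference was 0.020, beside 0.058 over all genes. Ccnd3, the D cyclin on which pre-B cell proliferation depends, read 10.75, 10.88, 10.45, 10.17 and 10.17 in wild type and 10.67, 10.54, 10.88, 11.29 and 11.14 in heterozygous arrays. Heterozygous 4 and 5, the highest in Cish too, were the highest there as well, and the difference was 0.42 (SE 0.187, limma adjusted p = 0.449). Pim3 was at 0.23 (limma adjusted p = 0.404), with heterozygous 2, 3, 4 and 5 above every wild type array. Il2ra, which encodes CD25 and marks pre-B cells, was lower, at -0.81 (SE 0.259, limma adjusted p = 0.349), with heterozygous 2 and 5 below every wild type array. Myc was at 0.34 (SE 0.368), and the survival gene Bcl2 and the cyclin gene Ccnd2 were at -0.077 (SE 0.258) and -0.076 (SE 0.325). Without 1 array these 3 ran from 0.087 to 0.63, from -0.26 to 0.063 and from -0.33 to 0.12. The count of 2 higher genes was 0 without wild type 3 and 1 without wild type 1, 4 or 5 or heterozygous 3, 4 or 5, and it was also 1 without both macrophage-high arrays and 0 with median centred arrays.

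Of 13 measured genes known to rise when interleukin 7 is withdrawn from B cell precursors, 7 were lower and 0 higher in heterozygous samples at an unadjusted limma p under 0.05, where 4.25% of all genes were lower, and none passed adjustment. The other 6 did not reach that p, and Blnk, an adaptor of the pre-B cell receptor, was at 0.067 (SE 0.117). Beside these values stand the plasmacytoid dendritic cell markers, higher in 4 of 5 measured genes, whose part in them was not tested. The median difference was -0.57, beside 0.058 over all genes. The list was written with the lower values of some of its genes, such as Rag1 and Cxcr4, already known, so its count is not independent evidence. Ccng2, an atypical cyclin induced by FOXO factors, read 8.12, 8.21, 8.20, 8.36 and 8.62 in wild type and 7.54, 7.44, 7.93, 7.82 and 7.36 in heterozygous arrays. No array of one genotype reached the other, and the difference was -0.68 (SE 0.139, limma adjusted p = 0.229). The genotypes were likewise apart in Cxcr4, the receptor for the marrow chemokine CXCL12, at -0.57 (SE 0.128, limma adjusted p = 0.297), and in Cdkn1b, the cyclin-dependent kinase inhibitor p27, at -0.60 (SE 0.147, limma adjusted p = 0.345). With array weights the limma adjusted p of these 2 genes was 0.0404 and 0.0476. Rag1, of the recombinase, was at -0.79 (SE 0.231). Bcl6, which STAT5 represses directly, was at -0.21 (SE 0.187, limma adjusted p = 0.636), -0.33 without heterozygous 2 and -0.11 without wild type 1. The count of 7 was also 7 without the 2 macrophage-high arrays and ran from 7 to 9 without 1 array. Over the other settings it ran from 6 to 9, and the count of higher genes ran from 0 to 1.

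**Figure D4:**
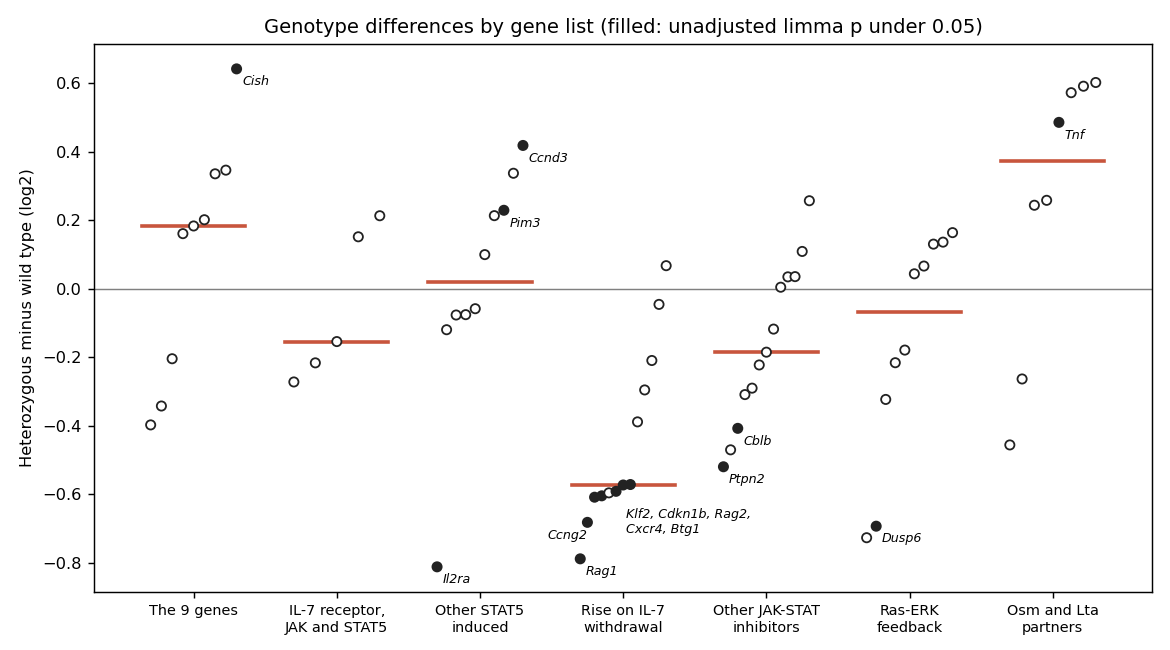
Heterozygous minus wild type difference (log2) of the 9 genes and of the measured genes of 6 related lists, with 1 point per gene, filled where the unadjusted limma p was under 0.05, and the median of each list as a red line. The median is 0.18 for the 9 genes and -0.57 for genes that rise on interleukin 7 withdrawal.

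Of 13 measured other inhibitors of JAK-STAT signalling, which act on the same chain as Cish, 0 were higher and 2 lower at an unadjusted limma p under 0.05, beside 6.79% and 4.25% of all genes. Their median difference was -0.19, beside 0.058 over all genes. The lower ones were Ptpn2, a tyrosine phosphatase that acts on JAK1 and JAK3 and on STAT proteins, at -0.52 (SE 0.160, limma adjusted p = 0.349), and Cblb, a ubiquitin ligase, at -0.41 (SE 0.124, limma adjusted p = 0.349). Ptpn2 read 7.40, 7.70, 7.95, 8.15 and 7.71 in wild type and 7.48, 7.40, 7.40, 7.15 and 6.88 in heterozygous arrays, so that only heterozygous 4 and 5 lay below the wild type range. The count of 2 lower genes was 4 without wild type 1 and 3 without both macrophage-high arrays, when 1 gene was also higher.

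Among 10 Ras-ERK feedback genes, the setting of Spred1, 1 was lower and 0 higher at an unadjusted limma p under 0.05, a share close to the 11.0% of all genes with such a p. It was Dusp6, the cytosolic phosphatase of ERK, at -0.69 (SE 0.196, limma adjusted p = 0.349). Its values were 8.81, 9.47, 8.52, 8.58 and 9.10 in wild type and 7.99, 8.19, 8.58, 8.34 and 7.90 in heterozygous arrays, and all heterozygous arrays but heterozygous 3 lay below the wild type range. The count was 2 without wild type 1 or heterozygous 1 and 4 without wild type 2. Of 8 measured partners and receptors of Osm and Lta, 1 was higher and 0 lower, again close to 11.0%. It was Tnf, the neighbour and relative of Lta, at 0.49 (SE 0.220, exact permutation p = 0.0794, limma adjusted p = 0.451). Heterozygous 4 and 5 were its highest arrays, at 8.12 and 8.57, against a wild type range of 7.10 to 7.70. That count was 0 without wild type 4 or 5 or heterozygous 4 or 5 and with macrophage markers as a covariate, and it was 3 without wild type 1 and without both macrophage-high arrays, when 1 gene was also lower.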

How the data were processed

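Expression was measured on 10 Mouse Gene 1.0 ST arrays, 1 per mouse. The deposited values are gene-level RMA values on the log2 scale, which per the labels the authors made in Affymetrix Expression Console. Its version, the genome build and the probe annotation are not given in the sources used here. Such processing equalises the arrays, so a shift of most genes together would be largely removed.

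Of 35556 probe sets, 21789 had 1 gene symbol in the platform annotation, 1621 several and 12146 none listed. One row per symbol was kept, the probe set of highest mean, and only rows with a mean above the 25th percentile of 4.52 stayed, which were 14953 genes. The genotype comparison used limma 3.58.1 (lmFit, eBayes; R 4.3.3) on all of these, with Benjamini-Hochberg adjustment and a threshold of 0.05, and by two-sided exact permutation over all 252 splits. The test was checked on simulated data whose noise was drawn independently for each gene and array. Such data hold no array effects shared between genes, so the check does not cover them. Promoter sequences are RefSeq's.

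The named genes were the 9 members, Hspa9, the genes nearest in profile, and up to 4 genes per related list with an unadjusted p under 0.05 or else the 2 of smallest p, beside 7 fixed ones. Bcl6 and the marker genes named were chosen outside that rule, as was the search for a STAT5 motif. The members and lists were chosen with earlier results of these data known. Same-numbered arrays did not deviate together throughout (correlations of -0.53, 0.21, 0.53, 0.043 and 0.31), so the arrays were not treated as pairs by number. The labels do not say which mice shared a litter, so pairing by litter could not be checked. Alternatives were other filters and normalizations, each probe set as a row, trended variance, array weights, a replicate block, marker covariates, another threshold and arrays left out.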

Additional observations from a re-analysis of the deposited data

How the results depend on the processing

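None of the 9 differences changed sign in any of the 23 alternatives run for each, which were limma fits and the exact permutation test. None of the 9 genes passed the adjusted threshold of 0.05 in any of them (smallest limma adjusted p 0.118, Cish with other-cell markers as a covariate). Some alternatives leave a difference as it is and change only its p: other filters, each probe set as a row, trended variance, the replicate block and exact permutation. Only the remaining ones could have changed a sign. No gene of the whole table passed, but 137 did with array weights and 26 without wild type 1 and heterozygous 2. Leaving out 1 array gave 0 to 22 such genes, with 22 without wild type 1 and 3 without heterozygous 2. Of the 9 genes, 1 had an unadjusted p under 0.05. There were 2 with array weights, 2 with macrophage markers as a covariate, 3 with other-cell markers as a covariate and 2 without wild type 1 and heterozygous 2, and 0 to 2 without 1 array. The cause was not tested. With the replicate number as a block 0 genes passed, 1 of the 9 had an unadjusted p under 0.05 and Cish was at 0.64 (limma adjusted p = 0.555). No wild type array correlated best with its own number. Of all genes at an unadjusted p under 0.05, 61.5% were higher in heterozygous samples, against 47.5% with quantile normalization, 49.5% with cyclic loess and 50.5% with median centred arrays. The list and marker counts under other settings were added after seeing the data.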
